A study of Homo sapiens with 15 samples.

Results

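The 37 genes described here encode nucleolar proteins that make ribosomes. They were given as a list of gene symbols, chosen with earlier results of these data known but with no threshold on their levels. All 37 were found among the 58381 genes counted. Of these, 36 were among the 19621 genes with enough counts to be tested, and RRN3, an initiation factor of RNA polymerase I, was not. By role, 4 members belong to the box C/D small nucleolar ribonucleoproteins (snoRNPs), 5 to the box H/ACA snoRNPs and their chaperone, 6 to the assembly of the small ribosomal subunit, 11 to that of the large subunit and 9 to RNA polymerase I and its factors. The remaining members are nucleolin (NCL) and nucleophosmin (NPM1).

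RNA was sequenced from 5 sublines of VCaP, an established prostate cancer cell line, with 3 libraries per subline. All sublines share a first phase of 7 months at 10 nM testosterone in medium with 10% DCC-FBS, at the end of which they are called VCaP-T. VCaP-CT was kept for a further 10 months at 0.1 nM testosterone according to the protocol, to model androgen deprivation therapy, although its sample label gives 10 nM, and the same conflict between label and protocol holds for the 3 sublines derived from it. VCaP-CT-ER grew out of VCaP-CT under 10 µM enzalutamide (ENZ). Bicalutamide, given to VCaP-CT, led to VCaP-CT-BR. Later use of ENZ on cells insensitive to bicalutamide gave VCaP-CT-BR-ER. Both drugs are antagonists of the androgen receptor. The labels give no dose for bicalutamide or for the second use of ENZ, and that of VCaP-CT-BR also names ENZ after bicalutamide. Each subline was derived only once as far as described, so treatment, time in culture and derivation cannot be told apart, and p-values measure only the spread between libraries of a subline.

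In the nucleolus, RNA polymerase I transcribes ribosomal DNA into a long precursor, which snoRNPs modify and guide through cleavage while assembly factors fold it with ribosomal proteins into the small and large subunits. The box C/D snoRNPs methylate ribosomal RNA and the box H/ACA snoRNPs convert uridines to pseudouridines. Prostate cancer cells, like other dividing cells, need a steady supply of ribosomes, and enlarged nucleoli are a classical feature of prostate cancer under the microscope.

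Many genes of ribosome biogenesis carry an E-box, the motif CACGTG bound by several basic helix-loop-helix proteins, near their start. RefSeq promoter windows on GRCh38.p14, each with 250 bases before and 50 after the annotated start, were at hand for 29 of the 37 members. The motif reads the same on both strands. It lay in the windows of 14 of the 29 members (48.3%), against 8.77% of all 27305 genes with a window and 12% of the 12263 tested ones. The share was 32.4% of 34 other small-subunit factors, 34.2% of 38 other large-subunit factors and 6.35% of 63 cytosolic ribosomal protein genes. For 7 of these 14 members, chosen because their values are given in every library below, 30 bases around the motif are shown 5′ to 3′ on the strand of the gene, with the E-box in capitals.
WDR43 (chr2:28894658-28894687, plus strand): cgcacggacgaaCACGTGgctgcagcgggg
BYSL (chr6:41921515-41921544, plus strand): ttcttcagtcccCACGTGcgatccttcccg
DDX21 (chr10:68956604-68956633, plus strand): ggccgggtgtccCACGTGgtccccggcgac
UTP20 (chr12:101280083-101280112, plus strand): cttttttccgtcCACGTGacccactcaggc
MYBBP1A (chr17:4555340-4555369, minus strand): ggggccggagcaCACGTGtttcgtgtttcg
FBL (chr19:39846356-39846385, minus strand): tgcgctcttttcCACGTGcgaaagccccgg
PES1 (chr22:30591880-30591909, minus strand): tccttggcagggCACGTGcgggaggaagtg

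In these 7 genes the motif began between 31 bases before (DDX21) and 28 bases after (BYSL) the start. The changes of members with and without it had similar medians. From VCaP-T to VCaP-CT, for example, the median log2 fold change was 0.28 over 14 tested members with an E-box and 0.37 over 14 without, and at the step to VCaP-CT-ER it was −0.05 in both.

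The libraries held 33665716 to 46935279 counted fragments, so 3 counts correspond to at most 0.0891 CPM, the counts scaled to a common library size. Replicates correlated at r of 0.995 or more, above the highest value between sublines (0.983). All 10 markers of prostate epithelium were detected in every library, with mean levels of KLK3 between 14.13 CPM in VCaP-CT-BR and 3560 CPM in VCaP-T. Markers of other cell types differed between sublines, and their part in the results below was not tested. COL1A2, CD3E, FCGR3A and KDR had no count in any library, PTPRC at most 2 and CDH5 at most 1. More than 3 counts in some library were found for 5 of 6 fibroblast markers, whose sum was 7.65 to 8.85 CPM for VCaP-T, 185 to 217 for VCaP-CT-ER and 217 to 251 for VCaP-CT-BR-ER, nearly all of it LUM in these ENZ lines, and 10.1 to 25.4 in the remaining lines. For 2 of 6 immune markers, LYZ and CD14, the sum was 45.3 to 59.2 CPM in VCaP-T, nearly all of it LYZ, and at most 1.9 elsewhere. For 3 of 5 endothelial markers, mostly VWF and PECAM1, it was 13.2 to 16.4 CPM for VCaP-T, 8.25 to 9.31 for VCaP-CT and at most 1.57 elsewhere.

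The 37 genes together made up a larger share of the RNA in every subline derived from VCaP-T. Their share of all counts was 0.350 to 0.361% for VCaP-T, against 0.439 to 0.462% for VCaP-CT, 0.440 to 0.448% for VCaP-CT-ER, 0.497 to 0.512% for VCaP-CT-BR and, highest, 0.508 to 0.515% for VCaP-CT-BR-ER. After scaling of the libraries, the summed level was 3569 ± 49.8 CPM (SD, n = 3) for VCaP-T, 4541 ± 136 for VCaP-CT, 4333 ± 70.3 for VCaP-CT-ER, 5030 ± 85.6 for VCaP-CT-BR and 5144 ± 58.7 for VCaP-CT-BR-ER. CPM is a share of the RNA, and in bulk samples fewer cells of a type and less RNA per cell cannot be told apart. Of the 36 tested members, 22 had their lowest mean in VCaP-T, and 29 their highest in a bicalutamide line (13 before and 16 after the use of ENZ). The matching shares of all tested genes were not computed, so these counts cannot be called particular to the members. VCaP-CT held the highest mean of 5 members, BOP1, BYSL, RRP9, RRP12 and TCOF1. NOP56 alone peaked in VCaP-CT-ER, and WDR74 alone in VCaP-T.

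**Figure D1:**
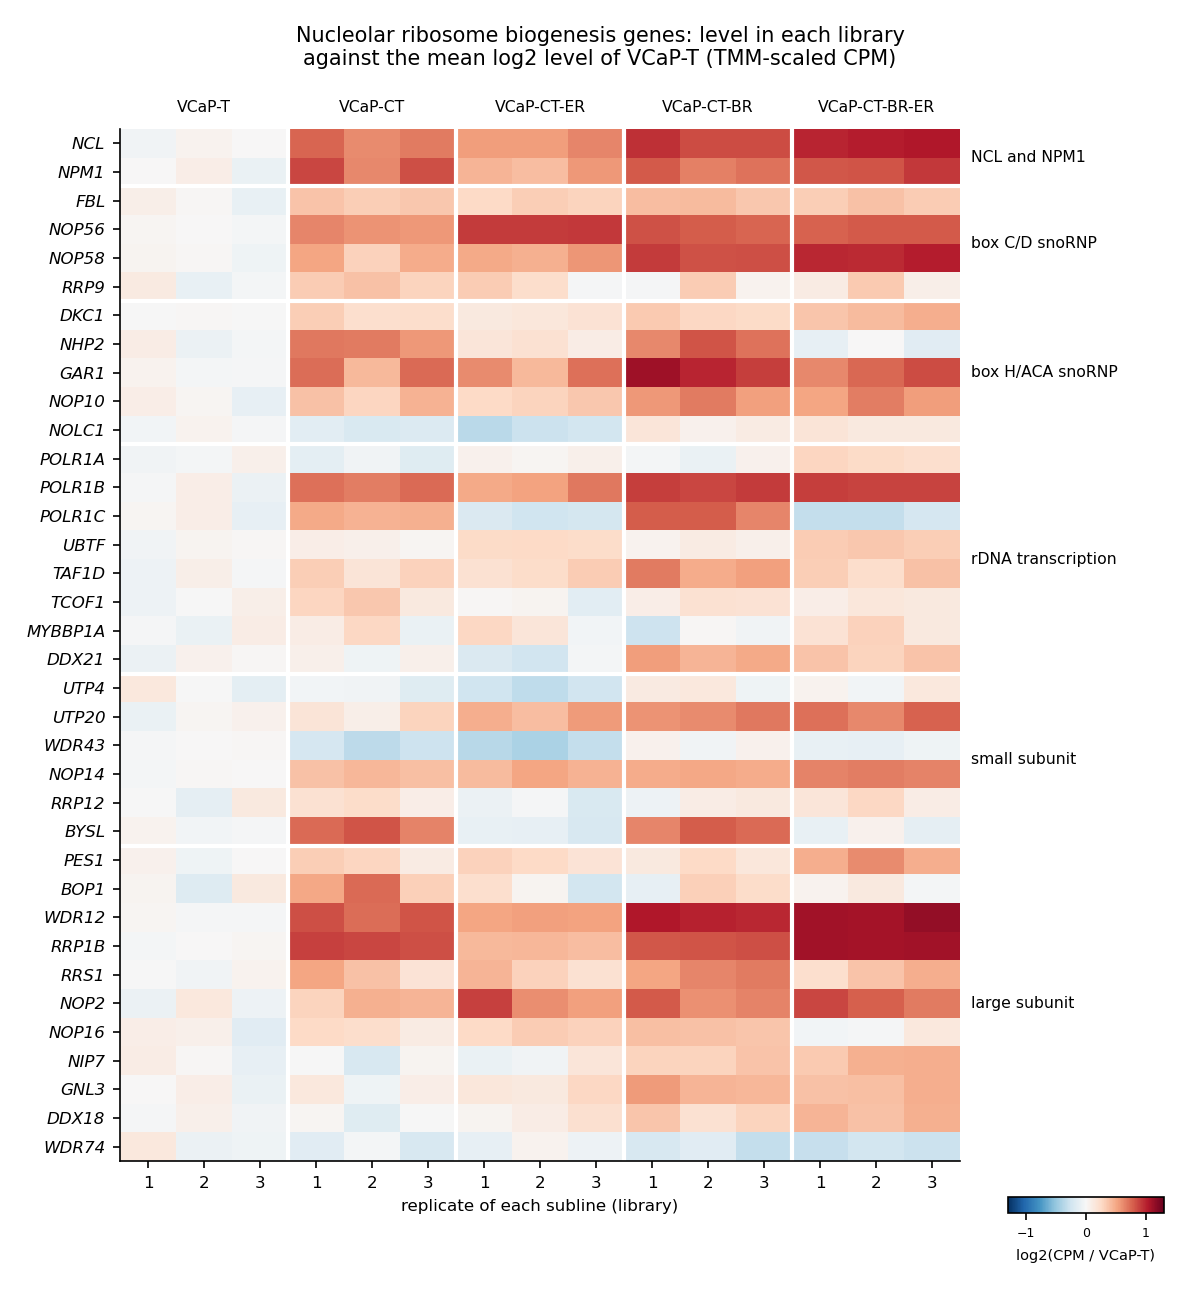
Level of 36 genes (rows, grouped by role) in each of 15 libraries (columns, grouped by subline), as log2 CPM minus the gene's mean log2 CPM in VCaP-T. Most rows rise from VCaP-T to the right. In both ENZ lines BYSL and NHP2 return to near their VCaP-T level, while POLR1C lies below its VCaP-T level.

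The members spanned a wide range of levels in TPM, which divides counts by gene length before each library is scaled to a fixed sum. Averaged over the 15 libraries, NOP10 had 406 TPM, FBL 324 TPM, NPM1 265 TPM and NCL 253 TPM, whereas WDR12 had 8.61 TPM, UTP4 6.23 TPM and NOP2 2.21 TPM. Exons of WDR12, UTP4 and NOP2 overlap other genes. Fragments in such exons were left out while TPM used the full gene length, so these low values may be underestimates. The mean CPM of a gene in its highest subline was 1.21 times (RRP12) to 2.15 times (WDR12) that in its lowest, with a median of 1.46. The coefficient of variation between libraries of one subline, taken as the median over sublines, was 5.11% for the median gene and largest for BOP1.

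Growth at low testosterone, in the comparison of VCaP-CT with VCaP-T, came with higher levels of most of these genes. NCL and NPM1, all 4 box C/D genes, and the large-subunit factors RRP1B and WDR12 were among those that rose. At an adjusted p under 0.05, 25 of 36 members were higher (69.4%) and 2 were lower (5.56%), where 33.1% of all tested genes were higher and 32.2% lower. The median log2 fold change was 0.30 over the members and 0.03 over all tested genes, with members between −0.28 and 0.87. In the alternatives to the fit, 24 of the 27 calls held, and those of NOP16, RRP12 and UTP20 did not hold in all of them.

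The first ENZ step, from VCaP-CT to VCaP-CT-ER, divided the members. BYSL, POLR1C, BOP1, NHP2, RRP1B and NPM1 fell, while NOP56, UTP20 and UBTF rose. In all, 6 of 36 members were higher (16.7%) and 13 were lower (36.1%), against 29.6% and 31.2% of all tested genes, so the share of lower members lay near the background. The median was −0.07 over the members, which ranged from −0.87 to 0.32, and −0.02 over all genes. The calls of DDX18, DDX21, NOLC1, NOP2, POLR1B and UTP4 were lost in at least 1 alternative, which left 13 of 19.

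Outgrowth under bicalutamide, from VCaP-CT to VCaP-CT-BR, came with further rises, led by the RNA helicase DDX21, UTP20, NOP58 and GNL3. Higher levels were called for 18 of 36 members (50%) and a lower level only for BOP1 (2.78%), against 26.1% and 27.0% of all tested genes. The median was 0.18 over the members, with a range from −0.37 to 0.47, and −0.02 over all genes. Of the 19 calls, those of BOP1, NOP16 and RRS1 were lost in at least 1 alternative.

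The second ENZ step, which led to VCaP-CT-BR-ER, again moved members both ways, with POLR1C, NHP2 and BYSL falling most and PES1 and MYBBP1A rising most. Of the 36 members, 8 were higher and 8 were lower (22.2% each), close to the 21.2% and 21.7% of all tested genes. The median was 0.02 over the members, which ranged from −1.02 to 0.34, and 0.00 over all genes. DDX21, DKC1, GAR1, NCL and RRS1 did not keep their calls in every alternative, which left 11 of 16.

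Between the ENZ lines themselves, VCaP-CT-BR-ER had more of 21 of 36 members (58.3%) than VCaP-CT-ER and less of 4 (11.1%), where 23.3% and 22.7% of all tested genes were higher and lower. RRP1B and WDR12 differed most upward and NOP16, WDR74 and NHP2 most downward. The median was 0.22 over the members, which ranged from −0.26 to 0.67, and 0.00 over all genes, and 22 of 25 calls held in every alternative, those of NOP56, TCOF1 and WDR74 being the exceptions. Several of these comparisons share libraries with one another, whereas the 2 ENZ steps share none. WDR74, a large-subunit factor, was the only tested member called in none of the 4 steps from a subline to one derived from it. How many of all tested genes were called in none of these steps was not computed.

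**Figure D2:**
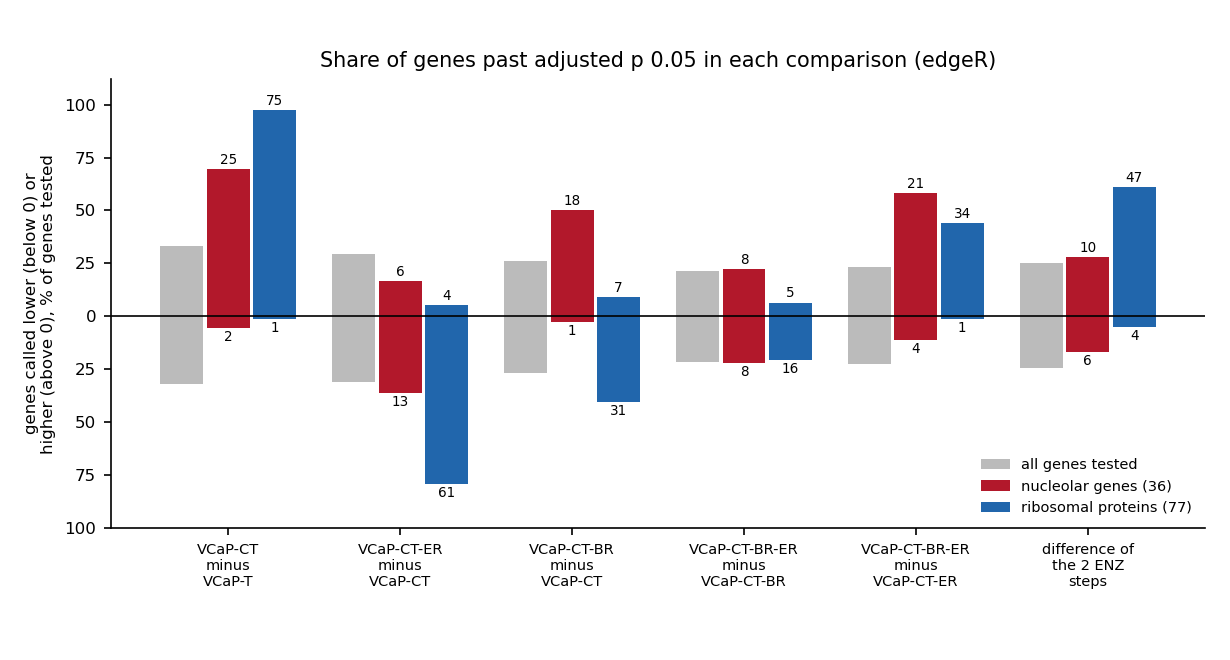
Percent of genes called higher (upward) or lower (downward) at an adjusted p under 0.05 in each comparison, for all 19621 tested genes, the 36 nucleolar members and 77 cytosolic ribosomal protein genes. The members exceed the background for higher calls in VCaP-CT against VCaP-T (69.4% against 33.1%), VCaP-CT-BR against VCaP-CT (50% against 26.1%) and VCaP-CT-BR-ER against VCaP-CT-ER (58.3% against 23.3%). At the second ENZ step the shares were close (22.2% against 21.2%), and at the first fewer members were called higher (16.7% against 29.6%).

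NCL and NPM1, abundant nucleolar RNA-binding proteins and histone chaperones, were lowest in VCaP-T. NCL (2:231453531-231483641, minus strand) measured 419, 446 and 434 CPM for VCaP-T, 734, 662 and 689 for VCaP-CT, 630.3, 632 and 673 for VCaP-CT-ER, 837.5, 779 and 780.0 for VCaP-CT-BR, and 863, 876 and 888 for VCaP-CT-BR-ER. No VCaP-T library reached the level of any other library, and the VCaP-CT-BR-ER libraries were the highest. NCL rose from VCaP-T to VCaP-CT (log2 fold change 0.68 ± 0.048, adjusted p = 6.73e-11) and further to VCaP-CT-BR (0.20 ± 0.048, adjusted p = 0.00132), and its rise at the second ENZ step was small (0.13 ± 0.048, adjusted p = 0.0293) and was lost without any 1 of 3 libraries, VCaP-CT-BR replicate 2 or 3 or VCaP-CT-BR-ER replicate 3. NPM1 (5:171387116-171411137, plus strand) had 265, 281 and 249.7 CPM for VCaP-T, 484, 408 and 472 for VCaP-CT, 359.9, 349 and 391 for VCaP-CT-ER, 461.5, 418 and 432 for VCaP-CT-BR, and 463, 466 and 499 for VCaP-CT-BR-ER. It rose from VCaP-T to VCaP-CT (0.78 ± 0.064, adjusted p = 7.74e-10), fell at the first ENZ step (−0.31 ± 0.063, adjusted p = 0.000234) and had a log2 fold change of 0.12 ± 0.063 (adjusted p = 0.129) at the second, where the highest VCaP-CT-BR library was just below the lowest of VCaP-CT-BR-ER. Since the annotation lists 49 pseudogenes of NPM1 and fragments with several alignments were not counted, its level is uncertain.

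The box C/D snoRNPs carry guide RNAs that direct methylation of ribosomal RNA by fibrillarin (FBL), with NOP56 and NOP58 as paired core proteins and RRP9 as a partner of U3 snoRNA. All 4 genes rose from VCaP-T to VCaP-CT, with a median log2 fold change of 0.39, and their summed level was 574 ± 20.9 CPM for VCaP-T, 795 ± 17.8 for VCaP-CT, 878 ± 2.78 for VCaP-CT-ER, 883 ± 19.9 for VCaP-CT-BR and 885 ± 12.3 for VCaP-CT-BR-ER (SD, n = 3). FBL measured 239.7, 231 and 213.5 CPM for VCaP-T, 294.5, 284 and 291 for VCaP-CT, 273, 284 and 278 for VCaP-CT-ER, 302, 302 and 289.7 for VCaP-CT-BR, and 285, 296 and 286 for VCaP-CT-BR-ER, all other sublines lying above VCaP-T and close together. Its rise to VCaP-CT (0.35 ± 0.046, adjusted p = 1.01e-06) was the only change of FBL called in the 5 comparisons of sublines.

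NOP56 and its paralog NOP58 peaked in different sublines. NOP56 (20:2652145-2658393, plus strand) was measured at 259, 254.5 and 250.3 CPM for VCaP-T, 395, 381.5 and 376 for VCaP-CT, 478, 477 and 480.4 for VCaP-CT-ER, 452, 439 and 429.6 for VCaP-CT-BR, and 433, 442 and 443 for VCaP-CT-BR-ER. It was highest in VCaP-CT-ER, where the 3 libraries lay within 4 CPM of each other and above all others, and it rose at the first ENZ step (0.32 ± 0.040, adjusted p = 6.48e-07). At the second the log2 fold change was −0.003 ± 0.040 (adjusted p = 0.959). NOP58 had 90.1, 77.9 and 88.6 CPM for VCaP-CT, 89.2, 87.3 and 93.8 for VCaP-CT-ER, 118.5, 112.1 and 113 for VCaP-CT-BR and 125, 124 and 129 for VCaP-CT-BR-ER, so that both bicalutamide lines lay above the others. Its step to VCaP-CT-BR was 0.42 ± 0.054 (adjusted p = 1.41e-06) and its step to VCaP-CT-ER was 0.07 ± 0.054 (adjusted p = 0.245).

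In the box H/ACA snoRNPs, dyskerin (DKC1) is the pseudouridine synthase, NHP2, NOP10 and GAR1 complete the core, and NOLC1 is a chaperone that binds snoRNPs of both classes. From VCaP-T to VCaP-CT the 4 core genes rose and NOLC1 fell. DKC1 had 161, 164 and 161 CPM for VCaP-T, 203, 188 and 190.1 for VCaP-CT, 177, 179.9 and 184 for VCaP-CT-ER, 205, 195 and 193 for VCaP-CT-BR, and 208, 215 and 225 for VCaP-CT-BR-ER, with VCaP-T below all other libraries, and rose to VCaP-CT by 0.26 ± 0.045 (adjusted p = 4.29e-05). NHP2 (5:178149460-178153967, minus strand) measured 45.6, 40.5 and 42.0 CPM for VCaP-T, 68.6, 68.2 and 63.1 for VCaP-CT, 47.5, 49.0 and 45.45 for VCaP-CT-ER, 65.7, 75.01 and 69.65 for VCaP-CT-BR, and 39.65, 42.7 and 38.6 for VCaP-CT-BR-ER. It fell at both ENZ steps, with log2 fold changes of −0.49 ± 0.062 (adjusted p = 5.92e-07) on the first and −0.80 ± 0.062 (adjusted p = 1.38e-09) on the second, to levels near VCaP-T, and its groups did not overlap at either step. No other core gene fell at the first step, where DKC1 was at −0.10, NOP10 at −0.08 and GAR1 at −0.04, and at the second step GAR1 fell (−0.25 ± 0.092, adjusted p = 0.0313, lost without any 1 of 4 libraries) while DKC1 rose (0.13 ± 0.045, adjusted p = 0.0267, lost without any 1 of 3). Exons of NHP2 overlap RMND5B on the opposite strand. The counting did not use strand and left out fragments that met several genes. Fragments of NHP2 in the overlap are therefore missing from its count. NOLC1 was measured at 298, 314 and 301 CPM for VCaP-T, 277, 266 and 269 for VCaP-CT, 239, 250 and 259 for VCaP-CT-ER, 338, 317 and 327 for VCaP-CT-BR, and 341, 333 and 331 for VCaP-CT-BR-ER. It fell from VCaP-T to VCaP-CT (−0.17 ± 0.044, adjusted p = 0.00209) and rose in VCaP-CT-BR (0.27 ± 0.044, adjusted p = 2.43e-05), where all libraries were above all libraries of VCaP-CT.

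**Figure D3:**
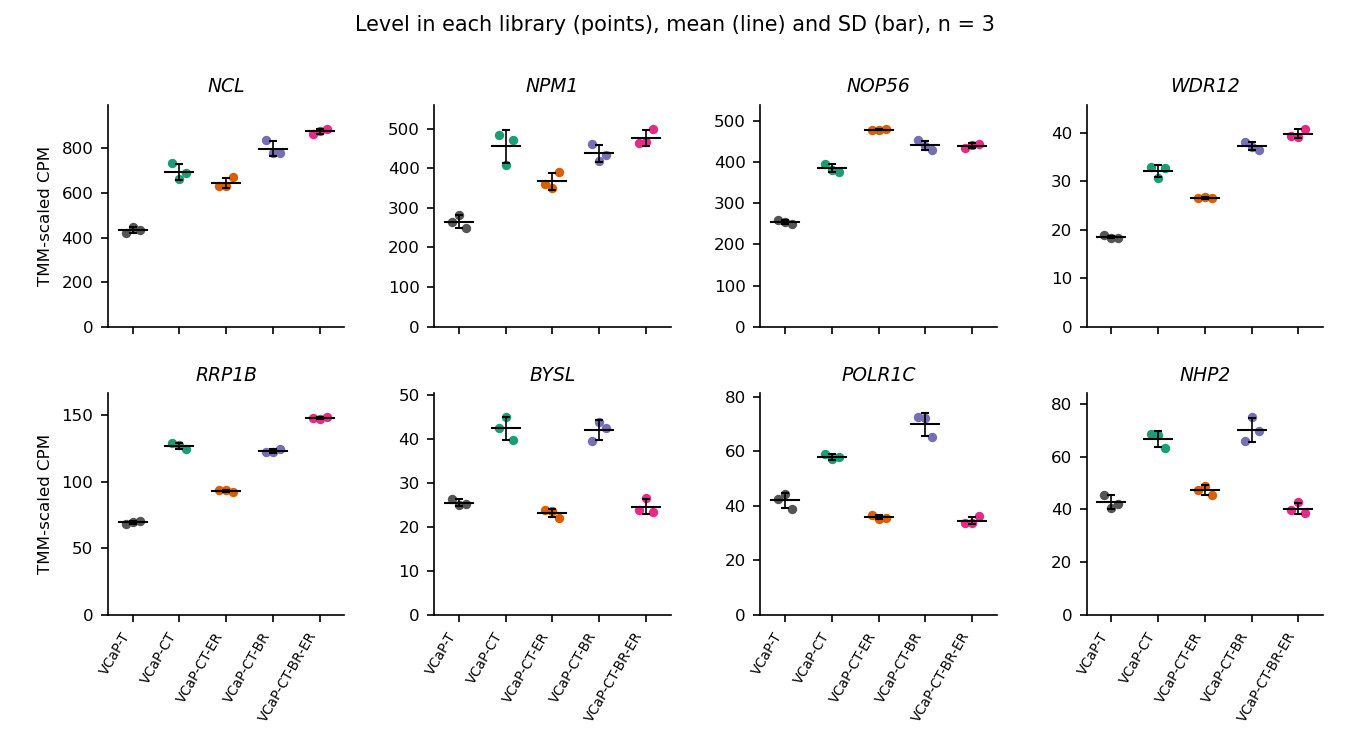
CPM of 8 genes in each library (points), with the mean and SD of 3 libraries per subline, on linear axes that start at 0. NCL and WDR12 are highest in VCaP-CT-BR-ER, NOP56 in VCaP-CT-ER, and BYSL, POLR1C and NHP2 drop in both ENZ lines.

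Among the small-subunit factors, BYSL (bystin), which acts in late maturation of the small subunit, changed most. At 6:41921188-41933046 on the plus strand, it had 26.4, 24.99 and 25.2 CPM for VCaP-T, 42.5, 45.05 and 39.9 for VCaP-CT, 23.9, 23.65 and 22.1 for VCaP-CT-ER, 39.6, 44.03 and 42.4 for VCaP-CT-BR, and 23.9, 26.6 and 23.5 for VCaP-CT-BR-ER. Both ENZ lines lay near the level of VCaP-T, below every library of the lines from which they came. BYSL rose from VCaP-T to VCaP-CT (0.73 ± 0.065, adjusted p = 2.75e-09) and fell on the first (−0.87 ± 0.065, adjusted p = 2.17e-10) and the second ENZ step (−0.77 ± 0.065, adjusted p = 4.68e-09), and a difference between these steps was not detected (0.10 ± 0.092, adjusted p = 0.375). UTP20 and WDR43, both subunits of the small-subunit processome that forms on the new precursor, went separate ways. UTP20 had 35.6, 38.3 and 39.2 CPM for VCaP-T, 42.4, 39.6 and 46.2 for VCaP-CT, 52.1, 49.7 and 55.4 for VCaP-CT-ER, 56.6, 57.7 and 60.4 for VCaP-CT-BR, and 62.0, 57.9 and 64.0 for VCaP-CT-BR-ER and rose under ENZ (0.29 ± 0.063, adjusted p = 0.000418) and under bicalutamide (0.45 ± 0.063, adjusted p = 5.07e-06) from VCaP-CT. WDR43 had 76.9, 77.8 and 78.5 CPM for VCaP-T, 66.6, 61.2 and 64.65 for VCaP-CT, 60.5, 58.6 and 62.7 for VCaP-CT-ER, 81.0, 75.2 and 80.9 for VCaP-CT-BR, and 72.8, 72.0 and 74.75 for VCaP-CT-BR-ER, fell from VCaP-T to VCaP-CT (−0.28 ± 0.050, adjusted p = 5.06e-05) and rose in VCaP-CT-BR (0.30 ± 0.050, adjusted p = 3.16e-05). NOP14 rose from VCaP-T to VCaP-CT (0.40 ± 0.043, adjusted p = 5.57e-08), RRP12 fell in VCaP-CT-ER (−0.28 ± 0.072, adjusted p = 0.00254), and UTP4 was higher in VCaP-CT-BR-ER than in VCaP-CT-ER (0.33 ± 0.079, adjusted p = 0.00168).

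PES1, BOP1 and WDR12 form one complex needed for processing of the large-subunit precursor, yet their levels did not move as one. WDR12 (2:202874782-203014798, minus strand) measured 18.9, 18.3 and 18.4 CPM for VCaP-T, 33, 30.6 and 32.65 for VCaP-CT, 26.5, 26.8 and 26.5 for VCaP-CT-ER, 38.1, 37.05 and 36.5 for VCaP-CT-BR, and 39.45, 39.1 and 40.85 for VCaP-CT-BR-ER. Its 5 sublines were ordered VCaP-CT-BR-ER, VCaP-CT-BR, VCaP-CT, VCaP-CT-ER and VCaP-T from high to low, with no overlap between neighbours, and it rose to VCaP-CT (0.79 ± 0.054, adjusted p = 4.06e-11) and fell in VCaP-CT-ER (−0.27 ± 0.052, adjusted p = 0.000143). PES1 had 98.3, 91.3 and 94.8 CPM for VCaP-T, 118, 115 and 102 for VCaP-CT, 117, 114 and 107 for VCaP-CT-ER, 103, 113 and 105 for VCaP-CT-BR, and 131, 145 and 131.5 for VCaP-CT-BR-ER and rose at the second ENZ step (0.34 ± 0.059, adjusted p = 8.01e-05), while the first gave 0.01 ± 0.060 (adjusted p = 0.895), a difference between the steps of 0.33 ± 0.084 (adjusted p = 0.00255). BOP1 spread widely, at 65.4, 57.0 and 70.0 CPM for VCaP-T, 90.7, 106 and 79.2 for VCaP-CT, 74.45, 65.6 and 54.2 for VCaP-CT-ER, 59.4, 79.0 and 75.4 for VCaP-CT-BR, and 66.0, 70.0 and 62.8 for VCaP-CT-BR-ER, and was highest in VCaP-CT, falling in VCaP-CT-ER (−0.51 ± 0.11, adjusted p = 0.00066) and in VCaP-CT-BR (−0.37 ± 0.11, adjusted p = 0.00997). The latter call was lost without VCaP-CT replicate 2 (log2 fold change −0.24, adjusted p = 0.106) or without VCaP-CT-BR replicate 1 (−0.26, adjusted p = 0.0674).

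RRP1B, a large-subunit factor that also binds a protein phosphatase, had the largest rise from VCaP-T to VCaP-CT and the largest difference between the ENZ steps. At 21:43659548-43696079 on the plus strand, it was measured at 68.5, 69.85 and 71.0 CPM for VCaP-T, 129, 128 and 125 for VCaP-CT, 93.75, 94.0 and 92.2 for VCaP-CT-ER, 122, 122.6 and 125 for VCaP-CT-BR, and 148, 147 and 149 for VCaP-CT-BR-ER. The libraries of a subline were close together, and no neighbouring sublines overlapped, although a library of VCaP-CT and one of VCaP-CT-BR both measured 124.9 CPM after rounding. RRP1B rose to VCaP-CT (0.86 ± 0.041, adjusted p = 1.01e-13), fell in VCaP-CT-ER (−0.45 ± 0.041, adjusted p = 5.3e-09) and rose at the second ENZ step (0.27 ± 0.040, adjusted p = 1.73e-05). NOP16 had 28.7, 28.3 and 24.55 CPM for VCaP-T, 32.6, 31.7 and 29.3 for VCaP-CT, 32.4, 34.05 and 33.3 for VCaP-CT-ER, 35.7, 35.35 and 34.85 for VCaP-CT-BR, and 26.5, 26.9 and 29.9 for VCaP-CT-BR-ER and fell on the second ENZ step (−0.35 ± 0.066, adjusted p = 0.000223). WDR74 had 33.3, 28.8 and 29.1 CPM for VCaP-T, 27.4, 29.8 and 26.3 for VCaP-CT, 28.2, 31.3 and 29.0 for VCaP-CT-ER, 26.2, 27.5 and 24.4 for VCaP-CT-BR, and 24.6, 25.7 and 24.9 for VCaP-CT-BR-ER, each subline overlapping the next in order, and was lower in VCaP-CT-BR-ER than in VCaP-CT-ER (−0.24 ± 0.069, adjusted p = 0.00823), a call lost without VCaP-CT-ER replicate 2. GNL3 (nucleostemin), DDX18, NIP7 and RRS1 rose in VCaP-CT-BR, by 0.42, 0.33, 0.37 and 0.25 on the log2 scale. NOP2, a methyltransferase of the large-subunit RNA, was counted at only 2.67 to 5.20 CPM. Its exons overlap another gene listed on the same strand, so that its level is uncertain, and it rose from VCaP-T to VCaP-CT (0.40 ± 0.12, adjusted p = 0.00758).

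Within the RNA polymerase I group, POLR1C, a subunit shared with RNA polymerase III, fell most, while the catalytic subunit POLR1A and the ribosomal DNA-binding factor UBTF rose at both ENZ steps. POLR1C (6:43509702-43562419, plus strand) had 42.6, 44.3 and 38.8 CPM for VCaP-T, 59.0, 57.1 and 57.7 for VCaP-CT, 36.7, 35.1 and 35.7 for VCaP-CT-ER, 72.5, 72.2 and 65.0 for VCaP-CT-BR, and 33.7, 33.8 and 36.1 for VCaP-CT-BR-ER. Its ENZ lines were the lowest sublines, below every VCaP-T library, and it fell at the first (−0.69 ± 0.059, adjusted p = 1.68e-09) and at the second ENZ step (−1.02 ± 0.059, adjusted p = 1.21e-11), the latter to 0.494 of the level in VCaP-CT-BR. Exons of POLR1C overlap LRRC73, YIPF3 and XPO5 on the opposite strand. UBTF had 134, 141.5 and 139 CPM for VCaP-T, 146.5, 145 and 141 for VCaP-CT, 165, 165.5 and 163 for VCaP-CT-ER, 143, 148 and 144 for VCaP-CT-BR, and 173, 176 and 173 for VCaP-CT-BR-ER, with both ENZ lines above all other libraries, and rose by 0.19 ± 0.041 (adjusted p = 0.000433) and by 0.26 ± 0.041 (adjusted p = 2.34e-05). POLR1A rose by 0.16 ± 0.050 (adjusted p = 0.00954) and by 0.27 ± 0.050 (adjusted p = 0.000134), from 78.1, 82.7 and 76.8 CPM for VCaP-CT and 83.6, 80.4 and 88.6 for VCaP-CT-BR to 89.0, 87.0 and 89.1 CPM for VCaP-CT-ER and 104, 102 and 99.5 for VCaP-CT-BR-ER.

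POLR1B, the second-largest subunit, had 33.3, 35.8 and 32.0 CPM for VCaP-T, 55.3, 53.5 and 56.2 for VCaP-CT, 47.3, 48.5 and 54.1 for VCaP-CT-ER, 62.6, 61.25 and 63.3 for VCaP-CT-BR, and 62.6, 62.0 and 61.9 for VCaP-CT-BR-ER and rose from VCaP-T to VCaP-CT (0.71 ± 0.058, adjusted p = 6.67e-10), and its fall in VCaP-CT-ER (−0.14 ± 0.056, adjusted p = 0.0369) was lost in DESeq2 and in 14 other alternatives. DDX21, a helicase of ribosomal RNA transcription and processing, had 211.5, 232 and 225 CPM for VCaP-T, 233, 214 and 233 for VCaP-CT, 196, 188 and 219 for VCaP-CT-ER, 324, 301 and 313 for VCaP-CT-BR, and 287, 271.5 and 287 for VCaP-CT-BR-ER. The bicalutamide lines lay above all others, with a rise in VCaP-CT-BR of 0.47 ± 0.057 (adjusted p = 6.77e-07), and its small falls at the ENZ steps (−0.17 and −0.15) were both lost in some alternatives. MYBBP1A, a nucleolar co-repressor, had 103.5, 98.2 and 111.9 CPM for VCaP-T, 111, 126 and 98.2 for VCaP-CT, 126, 116 and 102 for VCaP-CT-ER, 86.6, 106 and 101 for VCaP-CT-BR, and 119, 129 and 114 for VCaP-CT-BR-ER and was called only at the second ENZ step (0.30 ± 0.088, adjusted p = 0.00807). TAF1D, part of the promoter selectivity factor, rose in VCaP-CT-BR (0.30 ± 0.060, adjusted p = 0.000231) and fell on the second ENZ step (−0.26 ± 0.060, adjusted p = 0.0015), and TCOF1 (treacle) fell at the first (−0.29 ± 0.061, adjusted p = 0.000338). RRN3 had 0 to 2 counts in every library. The annotation lists 4 pseudogenes of RRN3, and fragments with several alignments were not counted. Their part in its low count was not tested, and its level is not reported.

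The ENZ steps from VCaP-CT and from VCaP-CT-BR rest on separate libraries and can be set side by side. BYSL, DDX21, NHP2 and POLR1C fell at both, POLR1A and UBTF rose at both, and RRP1B fell at the first and rose at the second. Both calls of DDX21 were lost in some alternatives. Of the other members, 8 were called lower and 4 higher at the first step without a call at the second, 5 were called higher and 4 lower at the second without a call at the first, and 8 were called at neither. Joint shares of all tested genes over the ENZ steps were not computed, so these joint counts have no background beside them. The difference between the steps was tested itself. It was higher after bicalutamide for 10 of 36 members (27.8%) and lower for 6 (16.7%), against 25.2% and 24.5% of all tested genes, with a median of 0.07 over the members, a range from −0.44 to 0.71, and 0.01 over all genes. It was largest upward for RRP1B (0.71 ± 0.057, adjusted p = 1.91e-09), NPM1 (0.43 ± 0.090, adjusted p = 0.000404), BOP1 (0.40 ± 0.16, adjusted p = 0.0458) and RRP12 (0.40 ± 0.10, adjusted p = 0.00295), and downward for NOP16 (−0.44 ± 0.094, adjusted p = 0.000538), POLR1C (−0.32 ± 0.083, adjusted p = 0.0027) and NOP56 (−0.32 ± 0.056, adjusted p = 7.57e-05). The calls of BOP1, NOLC1, TAF1D, TCOF1 and UTP20 were lost in at least 1 alternative. For POLR1A the difference was 0.12 ± 0.070 (adjusted p = 0.187) and for UBTF 0.07 ± 0.058 (adjusted p = 0.317), so a difference between their steps was not detected.

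**Figure D4:**
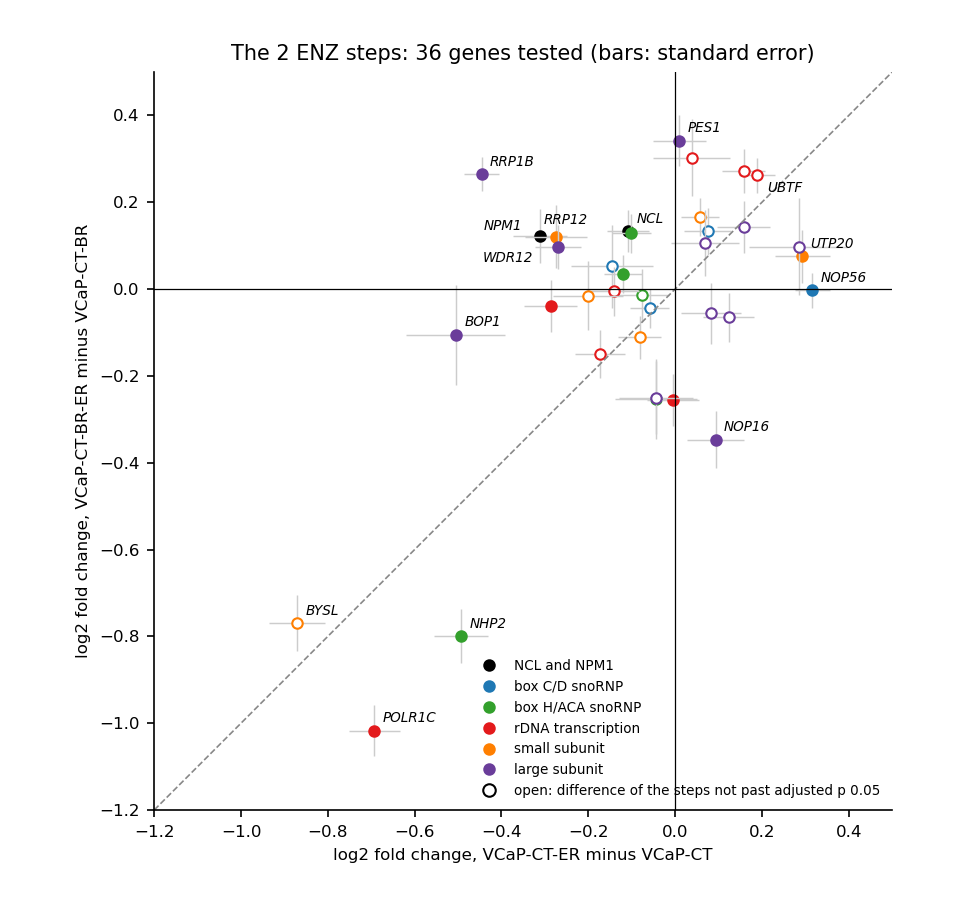
Log2 fold change with SE of 36 genes at the ENZ step from VCaP-CT (x axis) and from VCaP-CT-BR (y axis). Open points are genes whose steps did not differ at an adjusted p under 0.05; BYSL, POLR1C and NHP2 lie far down on both axes, and RRP1B lies in the upper left, at −0.45 and 0.27.

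The genes around several members moved with them. BYSL and POLR1C lie 1.58 Mb apart on chromosome 6, so their sets of neighbours overlap and each set contains the other gene. Among 63 tested genes within 2 Mb of BYSL, 54 fell and 2 rose at the first ENZ step (median −0.71), and 43 fell and 0 rose at the second (median −0.61). The 67 genes around POLR1C had 58 lower and 3 higher at the first step (median −0.77) and 48 lower and 0 higher at the second (median −0.68). On chromosome 21, the 67 genes around RRP1B had 44 higher and 11 lower from VCaP-T to VCaP-CT (median 0.65), 50 lower and 4 higher at the first ENZ step (median −0.58), and 25 higher and 6 lower at the second (median 0.20). Around NHP2, 41 of 71 genes were lower and 0 higher at the second ENZ step (median −0.40). NOP16 lies 1.76 Mb from NHP2 on chromosome 5, so their sets of neighbours overlap. It fell by −0.35 at that step, where 31 of its 56 neighbours were lower and 1 higher (median −0.34). UTP20 rose by 0.29 at the first ENZ step, where 20 of its 29 neighbours were higher and 2 lower (median 0.57). In VCaP-CT-BR against VCaP-CT its neighbours had a median of 0.54, with 16 higher and 2 lower. The median was 0.24 around NOP58 (21 higher, 5 lower), 0.06 around DDX21 (14 higher, 5 lower) and −0.20 around GNL3 (6 higher, 26 lower). Around BOP1, 52 of 72 genes were higher and 2 lower from VCaP-T to VCaP-CT (median 0.73). From VCaP-CT, 34 of these neighbours were lower and 4 higher at the first ENZ step (median −0.27). In VCaP-CT-BR, 34 were lower and 1 higher (median −0.30). The part of these neighbourhoods in the members' changes was not tested, and DNA copy number was not analysed here.

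In some comparisons, other members moved apart from their surroundings. At the first ENZ step NOP56 was at 0.32, while its 55 neighbours had a median of −0.11, with 9 higher and 20 lower. NCL rose by 0.68 from VCaP-T to VCaP-CT, beside a median of 0.17 over 38 neighbours, and NPM1 by 0.78, beside 0.08 over 22. At the first ENZ step, however, NPM1 was at −0.31 and the median of its neighbours at −0.37. Of the 36 members, 28 lay above the median of their neighbours from VCaP-T to VCaP-CT, 15 at the first ENZ step, 29 from VCaP-CT to VCaP-CT-BR, 17 at the second ENZ step and 33 when the ENZ lines were compared with each other. The median differences from the neighbours were 0.17, −0.01, 0.18, 0.00 and 0.23 on the log2 scale. How often other tested genes lay above the median of their own neighbours was not computed. These counts therefore cannot be called particular to the members.

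**Figure D5:**
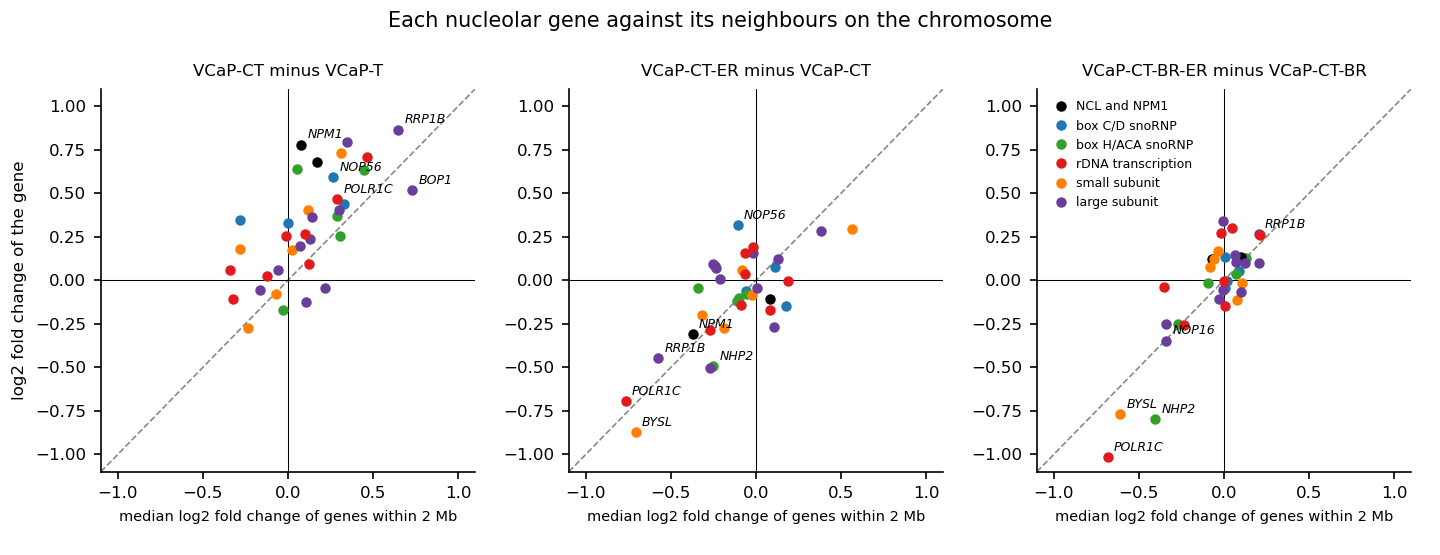
Log2 fold change of each of 36 genes (y axis) against the median log2 fold change of the tested genes within 2 Mb of it (x axis), for VCaP-CT against VCaP-T and for both ENZ steps, with the line of equality. At both ENZ steps BYSL and POLR1C and their neighbours lie at large negative values, POLR1C below the line at the second (−1.02 against −0.68). In VCaP-CT against VCaP-T 28 of 36 genes lie above the line, a share not computed for other tested genes.

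Beyond the neighbourhoods, 8 members host 32 snoRNA genes in their introns or exons, so 21.6% of members are snoRNA hosts against 1.7% of 13849 tested protein-coding genes. Exons of 20 tested members overlap no other gene besides snoRNA and microRNA genes. Among these 20, 15 were higher and 2 lower from VCaP-T to VCaP-CT (median 0.36), 4 and 8 at the first ENZ step (−0.11), 11 and 1 from VCaP-CT to VCaP-CT-BR (0.19), 4 and 3 at the second ENZ step (0.02), and 14 and 1 between the ENZ lines, VCaP-CT-BR-ER being the higher (0.27). Of all tested genes, 33.1% were higher and 32.2% lower in the first comparison. The shares were 29.6% and 31.2% at the first ENZ step and 26.1% and 27.0% from VCaP-CT to VCaP-CT-BR. At the second ENZ step they were 21.2% and 21.7%, and between the ENZ lines 23.3% and 22.7%.

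Other factors of the same pathway were described for comparison. Of 39 tested small-subunit factors outside the 37 genes, 21 were higher and 7 lower from VCaP-T to VCaP-CT (median 0.22), 12 and 13 at the first ENZ step (−0.02), 20 and 4 from VCaP-CT to VCaP-CT-BR (0.15), 9 and 3 at the second ENZ step (0.06), and 26 and 1 in VCaP-CT-BR-ER against VCaP-CT-ER (0.22). Of 40 tested large-subunit factors the counts were 23 and 5 (0.18), 7 and 15 (−0.09), 17 and 5 (0.13), 10 and 7 (0.06), and 27 and 1 (0.22) in the same order. Of 8 other genes of RNA polymerase I they were 4 and 2 (0.23), 0 and 2 (0.03), 5 and 2 (0.30), 1 and 1 (0.03), and 3 and 2 (0.22). In each list, higher calls exceeded lower calls in VCaP-CT against VCaP-T, in VCaP-CT-BR against VCaP-CT and between the ENZ lines, as among the members. For the RNA polymerase I genes the excess between the ENZ lines was only 3 against 2. The lists were chosen with earlier results of these data known, so their likeness to the members is not independent support. Of all tested genes, 33.1% were higher and 32.2% lower in VCaP-CT against VCaP-T. In VCaP-CT-BR against VCaP-CT the shares were 26.1% and 27.0%, and between the ENZ lines 23.3% and 22.7%.

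Single genes of these lists changed more than most members. NLE1, a large-subunit factor, rose from VCaP-T to VCaP-CT (log2 fold change 1.25 ± 0.057, adjusted p = 6e-14) and fell in VCaP-CT-ER (−0.78 ± 0.056, adjusted p = 1.28e-10). NOB1, the nuclease of the last cleavage of small-subunit RNA, fell in VCaP-CT-ER as well (−0.86 ± 0.059, adjusted p = 6.16e-11), and its ENZ step after bicalutamide differed from that without by 0.94 ± 0.083 (adjusted p = 8.12e-09). ZNF622, a factor of late large-subunit maturation, rose at the second ENZ step (0.72 ± 0.065, adjusted p = 1.24e-08).

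The cytosolic ribosomal protein genes, whose products are built into the subunits that the members assemble, were described beside the members, and no difference between the lists was tested. Of 77 tested, 75 were higher and 1 lower in VCaP-CT than in VCaP-T, with a median of 0.72 (members 0.30). At the first ENZ step 61 were lower and 4 higher (median −0.33, members −0.07). From VCaP-CT to VCaP-CT-BR, 31 were lower and 7 higher (median −0.10), where 18 members were higher and 1 lower (median 0.18). At the second ENZ step 16 were lower and 5 higher (median −0.03, members 0.02), and in VCaP-CT-BR-ER against VCaP-CT-ER 34 were higher and 1 lower (median 0.16, members 0.22). Their share of all counts was 5.52 to 6.39% for VCaP-T, 9.20 to 9.86% for VCaP-CT, 7.52 to 7.64% for VCaP-CT-ER, 8.37 to 8.90% for VCaP-CT-BR and 8.31 to 8.602% for VCaP-CT-BR-ER. The share of the ribosomal protein genes was thus highest in VCaP-CT, and that of the nucleolar members in the bicalutamide lines. Fragments with several alignments were not counted, and the loss of such fragments from ribosomal protein genes was not examined. The levels of the ribosomal protein genes are therefore uncertain.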

How the data were processed

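Bulk RNA-seq of 15 libraries of VCaP sublines was used; the other experiments of the study were not analysed here. The authors deposited raw counts of fragments per gene. They had aligned the reads with STAR 2.5.4b to GRCh38 and counted exon overlaps with featureCounts 1.6.2 on GENCODE release 28, ignoring strand and leaving out fragments with several alignments or several genes. Symbols were taken from GENCODE release 44 by identifier (57754 of 58381 matched). Counts were tested with edgeR 4.0.16 in R 4.3.3 after filterByExpr at a minimum count of 10, with TMM scaling, 1 term per subline over all libraries, two-sided quasi-likelihood F tests (glmQLFTest) and p-values adjusted by Benjamini-Hochberg over 19621 genes, called at 0.05. The biological coefficient of variation was 0.0609. CPM used TMM-scaled library sizes, and TPM the gene lengths of the files. A standard error is the log2 fold change divided by the square root of F. The fit was tested on simulated data. Tables and figures were made in Python 3.11.15 with pandas 2.3.3, numpy 2.4.6 and matplotlib 3.10.9.

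The members and the other gene lists were chosen with earlier results of these data known. The rule for named members took, in each of 6 contrasts, the 2 largest rises and the 2 largest falls past the threshold, plus NOP56, FBL, DKC1, NPM1, NCL, POLR1B and UBTF, and for other lists the largest changes at an average log2 CPM of at least 1. Other members named, the neighbours within 2 Mb and the split by exon overlap were chosen after their values were seen. Alternatives were DESeq2 1.42.0, upper quartile scaling, library totals alone, other filters, fits of only the compared sublines, a block for the replicate number, and fits without 1 library at a time. Counting error is small at 33665716 to 46935279 counts per library. PCR copies were not told apart, so the floor of 3 counts covers counting error only.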

Additional observations from a re-analysis of the deposited data

Results flagged for a closer look

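For 16 members the ENZ step after bicalutamide (VCaP-CT-BR-ER minus its parent) differed from the one without it (VCaP-CT-ER minus VCaP-CT) in the interaction contrast of edgeR, at an adjusted p under 0.05 over all tested genes. The difference in log2 fold change was positive, meaning higher after bicalutamide, for RRP1B (0.71), NPM1 (0.43), BOP1 (0.40), RRP12 (0.40), WDR12 (0.37), PES1 (0.33), TCOF1 (0.25), NCL (0.24), DKC1 (0.23) and NOLC1 (0.15). It was negative for UTP20 (−0.22), TAF1D (−0.25), NHP2 (−0.31), NOP56 (−0.32), POLR1C (−0.32) and NOP16 (−0.44). Higher differences were called for 27.8% of the members and 25.2% of all tested genes, and lower ones for 16.7% and 24.5%. The calls of BOP1, NOLC1, TAF1D, TCOF1 and UTP20 were lost in at least 1 alternative. The 67 genes within 2 Mb of RRP1B had a median difference of 0.76, with 49 higher and 1 lower, the 71 around NHP2 had −0.30, with 10 higher and 25 lower, and the 56 around NOP16 had −0.28, with 8 higher and 19 lower. NHP2 and NOP16 lie 1.76 Mb apart on chromosome 5, so their sets of neighbours overlap. Around NPM1 the median of 22 genes was −0.20, opposite in sign to the gene, around POLR1C the median of 67 genes was 0.00, and around WDR12 the median of 37 genes was −0.05. Other medians shared the gene's sign around UTP20 (−0.705), TAF1D (−0.403), BOP1 (0.226), DKC1 (0.203), RRP12 (0.194), PES1 (0.123) and NOLC1 (0.114). Medians of the opposite sign lay around NOP56 (0.067), NCL (−0.065) and TCOF1 (−0.063). The part of the neighbourhoods was not tested.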

How the results depend on the processing

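Of 122 calls of members over 6 contrasts, 97 held in all 7 alternatives and all 15 fits without 1 library, and no named result reversed. The median over the members was 0.34 in VCaP-CT against VCaP-T and 0.14 in VCaP-CT-BR against VCaP-CT with upper quartile scaling, and with library totals only it was −0.016 in VCaP-CT-ER against VCaP-CT, 0.18 in VCaP-CT-BR-ER against VCaP-CT-ER and 0.009 for the difference between the ENZ steps. With no filter on low counts the median in VCaP-CT-ER against VCaP-CT was −0.026. Members lower in VCaP-CT-BR than in VCaP-CT numbered 3 with upper quartile scaling, 3 with no filter and 2 with the replicate block. Without single libraries, members lower in VCaP-CT than in VCaP-T numbered 2 to 4, members lower in VCaP-CT-BR than in VCaP-CT 0 to 3, and members lower at the second ENZ step 5 to 9. The median ranged from 0.26 to 0.31 in VCaP-CT against VCaP-T, from −0.11 to −0.043 at the first ENZ step and from 0.14 to 0.21 in VCaP-CT-BR against VCaP-CT. Replicate numbers did not pair the libraries: across 15255 genes the mean correlation of deviations was −0.009 for equal numbers and 0.005 for others, and 6 of 15 libraries were most like one of their own number.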
